A study of Mus musculus with 6 samples.

Results

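The family of miR-15a, miR-15b, miR-16, miR-195 and miR-497 is a set of small RNAs that carry the same seed, the short stretch near the 5′ end through which a miRNA finds its target messages. The wells were chosen by name: those of the deposited table whose miRNA name is miR-15a, miR-15b, miR-16, miR-195 or miR-497, with minor strands (names ending in # or *) left out. This gave 5 wells of 768 (750 of them miRNA wells), named mmu-miR-15a, mmu-miR-15b, mmu-miR-16, mmu-miR-195 and mmu-miR-497, and all 5 lie on the first of the 2 cards. The study read miRNAs with RT-PCR cards in right lungs taken from mice at day 7 of life. The hyperoxia group (3 samples) had breathed 95% oxygen for 7 days from an age under 12 hours, and the control group (3 samples) had stayed in room air for the same time. In both groups the dams changed places every 24 hours, and the pulmonary artery was perfused with PBS before the lung was frozen. The labels name no strain, sex or genotype, and they do not say whether each replicate is another animal. The p-values therefore reflect only how far these samples spread, some of which may be technical.

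Each miRNA precursor yields a mature strand that is loaded into an Argonaute protein and represses messages with a match to its seed. Members of this family are known as brakes on cell division and survival, with D-type and E-type cyclins, cyclin-dependent kinases and the survival protein Bcl-2 among their classic targets. miR-15a and miR-16 were first known from a deletion in chronic lymphocytic leukaemia, and miR-195 and miR-497 for the withdrawal of muscle cells, including those of the heart, from the cell cycle after birth. The first week after birth is a time of rapid growth in the mouse lung, when alveoli begin to form.

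The mature sequences are shown because the seed defines the family and the remainder tells its members apart. They are RNA, written 5′ to 3′ from the RefSeq annotation of GRCm38.p6, with the seed (bases 2 to 8) in capitals, and all 5 members were matched.
miR-15a: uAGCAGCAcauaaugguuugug
miR-15b: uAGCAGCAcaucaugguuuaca
miR-16: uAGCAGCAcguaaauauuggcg
miR-195: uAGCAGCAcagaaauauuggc
miR-497: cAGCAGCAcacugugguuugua

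The seed was identical in all 5. Of 1679 mature mouse miRNA names in that annotation 10 had it. Likeness was counted over the whole sequence, seed included, and then behind the seed alone. miR-16 and miR-195 had the same base at 19 of 21 positions, and at 11 of 13 behind the seed. There they shared an unbroken run of 10 bases, aaauauuggc. miR-15a and miR-15b had the same base at 18 of 22 positions and miR-15a and miR-497 at 17 of 22. Behind the seed each of these pairs had 10 of 14. The least alike members were miR-16 and miR-497, with 11 of 22, and 4 of 14 behind the seed.

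The genes lie in 3 places. miR-15a (chr14:61632075-61632096, minus strand) and a first copy of miR-16 (chr14:61631936-61631957, minus strand) come from hairpins 54 bases apart within the span of Dleu2, a long non-coding RNA gene. miR-15b (chr3:69009775-69009796, plus strand) and a second copy of miR-16 (chr3:69009918-69009939, plus strand) come from hairpins 66 bases apart within Smc4, which encodes a subunit of condensin. miR-497 (chr11:70234730-70234751, plus strand) and miR-195 (chr11:70235062-70235082, plus strand) come from hairpins 241 bases apart. The mature sequence of both miR-16 copies is the same, so its assay cannot tell them apart. Whether these hairpins are exonic or intronic was not analysed here.

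The data are threshold cycles (Ct), the PCR cycle at which a well's signal crosses a threshold. More RNA gives a lower Ct, and at full efficiency a difference of 1 cycle is a fold of 2. All 5 members were detected (Ct under 35) in all 6 samples. The first card had 307 to 319 detected miRNA wells per sample, and 282 of its miRNA assays were detected in all 6. The mean Ct of these 282 was 22.37 ± 0.30 in room air, against 23.13 ± 0.46 in hyperoxia (SD, n = 3 each), a delay of 0.76 cycles (exact permutation test, two-sided p = 0.1, the smallest that 3 samples against 3 allow). On the second card, room air replicate 1 and hyperoxia replicate 2 held the same value in 308 of 309 wells that amplified in both, so that card's values were left out for both samples. On the first card these samples shared 0 of 312. Lung markers were present, with the endothelial miR-126-3p at a Ct of 11.30 to 13.57 and 8 of 8 epithelial assays of the first card detected in all 6 samples. In such bulk samples, fewer cells of a type and less RNA per cell cannot be told apart.

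All 5 members crossed the threshold later in hyperoxia than in room air, by 0.75 to 1.46 cycles, which taken alone would mean less of each. The earliest Ct in hyperoxia was later than the latest in room air for each of them. This was common on the card: among the 282 assays, 46.5% had groups apart in the same way, 1.06% were apart with hyperoxia earlier, and 89.0% had a later mean. Differences between assays in priming and amplification set part of a Ct, so the order of members by Ct is not an order of abundance.

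miR-16, the member read earliest and a miRNA abundant in many cells, had a Ct of 13.62, 14.18 and 15.24 in room air, against 16.15, 15.27 and 15.98 in hyperoxia. The mean went from 14.35 ± 0.83 to 15.80 ± 0.47 (SD, n = 3 each), 1.46 cycles later. Only 0.030 cycles separated hyperoxia replicate 2 from room air replicate 3, so the groups barely parted. It ranked 5 to 9 in room air and 8 to 10 in hyperoxia by earliest Ct among the 282 assays.

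miR-15a, which shares the chromosome 14 transcript with miR-16, was at 19.29, 19.60 and 19.39 in room air, against 20.20, 19.91 and 20.40 in hyperoxia. The later reading in hyperoxia was the smallest of the family at 0.75 cycles, with 0.31 cycles between the groups. miR-15b, the chromosome 3 partner of miR-16, was at 18.58, 18.87 and 18.72 in room air, against 19.65, 19.43 and 19.91 in hyperoxia, 0.94 cycles later. By Ct, these were the members with the smallest spread between room air samples, an SD of 0.16 for miR-15a and 0.15 for miR-15b.

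miR-195 was at 16.29, 16.98 and 17.23 in room air, against 18.20, 17.53 and 18.08 in hyperoxia, 1.10 cycles later. miR-497, its partner on chromosome 11, was at 19.62, 20.20 and 20.05 in room air, against 21.42, 21.03 and 21.30 in hyperoxia, 1.29 cycles later. miR-497 showed the widest clear space of the family, 0.83 cycles between its latest room air and its earliest hyperoxia sample. The exact permutation test gave a two-sided p of 0.1 for each of the 5 members.

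**Figure D1:**
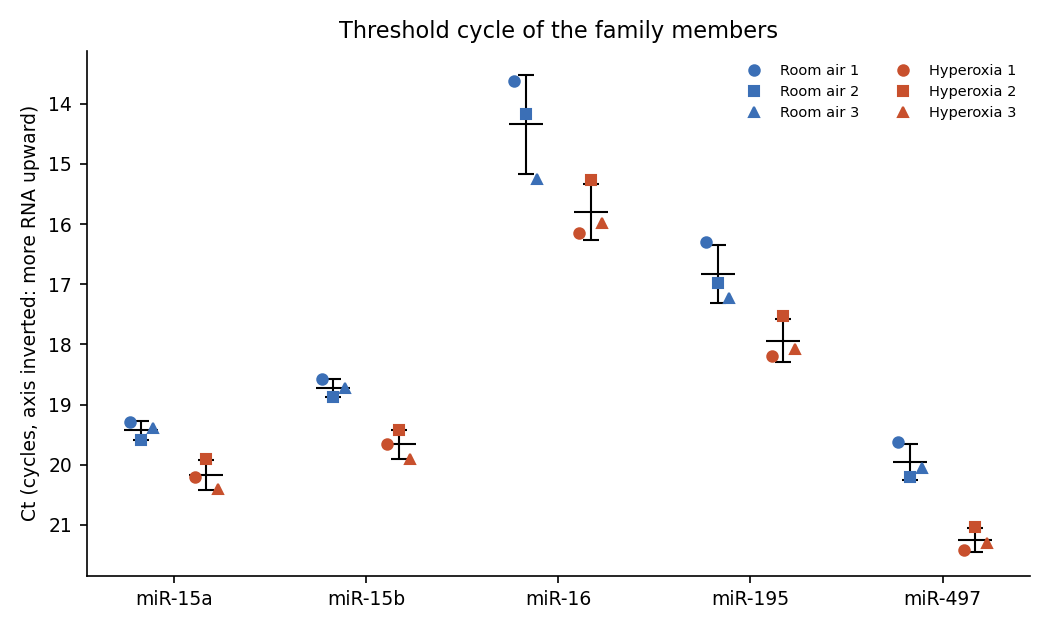
Ct in cycles (axis inverted, so more RNA lies upward) for each member in 3 room air and 3 hyperoxia samples, marked by replicate, with the group mean and SD as bars. Every hyperoxia point of a member lies below its room air points, by as little as 0.030 cycles for miR-16 and by 0.83 for miR-497.

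Expressed relative to the other miRNAs, 4 of 5 members had a negative difference and miR-15a lay near 0, at 0.016 ± 0.27 (SE). No difference passed the test. The log2 relative abundance of an assay is the mean Ct of the 282 assays in a sample minus the assay's own Ct, so a card-wide shift drops out. By limma over 551 assays of both cards, 0 of 5 members passed the threshold of 0.05 on the Benjamini-Hochberg adjusted p, and 0 had an unadjusted p under it. Over all assays the share passing was 0% after adjustment, by which 0 of 551 passed, and 50 had an unadjusted p under 0.05. Among all 551, 5.44% were lower in hyperoxia with an unadjusted p under 0.05. Of the members 4 had a negative and 1 a positive log2 fold change, with a median of -0.34. Over all 551 assays 57.9% were negative, with a median of -0.12.

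miR-16 had the most negative value with all samples used. Its log2 relative abundance was 8.41, 8.31 and 7.36 in room air, against 7.31, 7.34 and 7.33 in hyperoxia. Room air replicate 3 thus stood with the hyperoxia samples, above the highest of them by 0.016, while the other room air samples were about 1 unit higher. The log2 fold change of hyperoxia over room air was -0.70 ± 0.35 (SE; 95% interval -1.57 to 0.17), or 0.617-fold, with a limma adjusted p of 0.658. Without room air replicate 3 it was -1.04 (limma adjusted p = 0.112). Without room air replicate 1 or 2 it was -0.50 or -0.56 (limma adjusted p = 0.83 and 0.716), and miR-497 was then more negative, at -0.54 and -0.60. The hyperoxia SD of 0.012 was smaller than that of any other of the 282 assays, whereas the room air SD of 0.58 exceeded that of 72.7% of them.

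miR-497 was at 2.41, 2.29 and 2.55 in room air, against 2.05, 1.59 and 2.01 in hyperoxia. Its log2 fold change was -0.53 ± 0.25 (SE; 95% interval -1.15 to 0.087), or 0.692-fold, with a limma adjusted p of 0.632. miR-195 was at 5.74, 5.50 and 5.37 in room air, against 5.27, 5.09 and 5.23 in hyperoxia. Its log2 fold change was -0.34 ± 0.23 (SE; 95% interval -0.91 to 0.23), or 0.788-fold, with a limma adjusted p of 0.689. Both members of the chromosome 11 pair had hyperoxia samples below all room air samples, with less room between the groups for miR-195.

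The 2 miR-15 members showed the least difference. miR-15b was at 3.45, 3.62 and 3.88 in room air, against 3.82, 3.18 and 3.40 in hyperoxia, and miR-15a at 2.74, 2.89 and 3.21 in room air, against 3.27, 2.70 and 2.91 in hyperoxia. The groups overlapped for both. On this scale their room air SD, 0.24 for miR-15a and 0.22 for miR-15b, was not the smallest of the family. It was 0.18 for miR-195, 0.13 for miR-497 and 0.58 for miR-16. The log2 fold change was -0.18 ± 0.28 (SE; 95% interval -0.88 to 0.51) for miR-15b and 0.016 ± 0.27 (SE; 95% interval -0.67 to 0.70) for miR-15a, with limma adjusted p of 0.867 and 0.987. These intervals reach folds of 0.545 to 1.43 for miR-15b and 0.63 to 1.62 for miR-15a, so changes of that size in either direction remain possible for them. In all, 3 of 5 members had groups that did not overlap, each lower in hyperoxia, where 16.3% of the 282 assays did so in that direction.

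**Figure D2:**
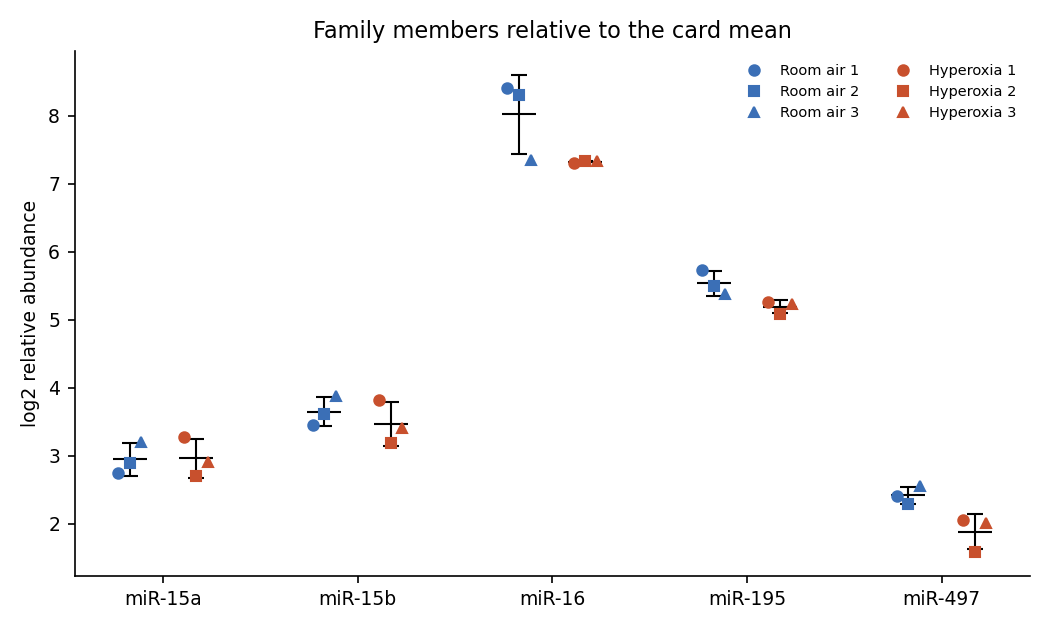
Log2 relative abundance (card mean Ct minus the assay's Ct) of each member in 3 room air and 3 hyperoxia samples, with group mean and SD as bars. miR-16 spans 7.36 to 8.41 in room air and 7.31 to 7.34 in hyperoxia, while the groups of miR-15a and miR-15b overlap.

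The choice of reference moves all members together. On the first card the median log2 fold change of the tested assays was -0.14 as reported, -0.69 with the 5 small RNA controls as reference and -0.90 with no normalization. Against those controls miR-15a was at -0.55, miR-15b at -0.75, miR-16 at -1.26, miR-195 at -0.91 and miR-497 at -1.095. Adjusted limma p was 0.417 to 0.526, and only miR-497 had an unadjusted p under 0.05 (0.0335). The Ct of snoRNA135, snoRNA202, U87 and Y1 differed by -0.078, 0.038, -0.13 and 0.41 cycles between groups, and the card mean by 0.76. The U6 wells, a common reference RNA, gave different answers by plate row. Against row A the card median was -0.46 and against row B 0.16. In room air replicates 1 and 3 the U6 Ct was the same in both rows, 9.36 and 10.26, whereas in the 3 hyperoxia samples it was 10.32, 10.20 and 10.38 in row A and 11.16, 10.73 and 11.02 in row B. With row A as reference, miR-15a was at -0.31 and miR-15b at -0.51, and with row B they were at 0.31 and 0.12, so their direction depends on the U6 well taken. miR-16, miR-195 and miR-497 stayed negative under both, from -1.02 to -0.40, from -0.67 to -0.045 and from -0.86 to -0.23. In the authors' deposited table the folds of hyperoxia over room air were 0.806 for miR-15a, 0.703 for miR-15b, 0.492 for miR-16, 0.628 for miR-195 and 0.552 for miR-497, which equal the values obtained here with row A within 0.01 on the log2 scale. With row A, miR-16 and miR-497 had an unadjusted limma p of 0.0388 and 0.0311 and an adjusted p of 0.447 each.

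Subtracting the card's median log2 fold change from that of a member removes the chosen reference by construction, since a reference shifts all assays of a sample alike. It puts that median in its place as the zero point. Relative to that median, miR-15a stood at 0.15, miR-15b at -0.047, miR-195 at -0.21, miR-497 at -0.40 and miR-16 at -0.56. Quantile normalization, which reshapes each sample's distribution, brought miR-16 to -0.28 and miR-497 to -0.24. With 1 sample left out, miR-16 ran from -0.34 (without room air replicate 1) to -0.89 (without room air replicate 3). Of the 302 first-card assays tested, 15.9% had a lower log2 fold change than miR-16, 24.2% than miR-497, 35.1% than miR-195, 47.4% than miR-15b and 59.3% than miR-15a. miR-15a and miR-15b thus lay near the middle of the card and no member lay at its edge.

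**Figure D3:**
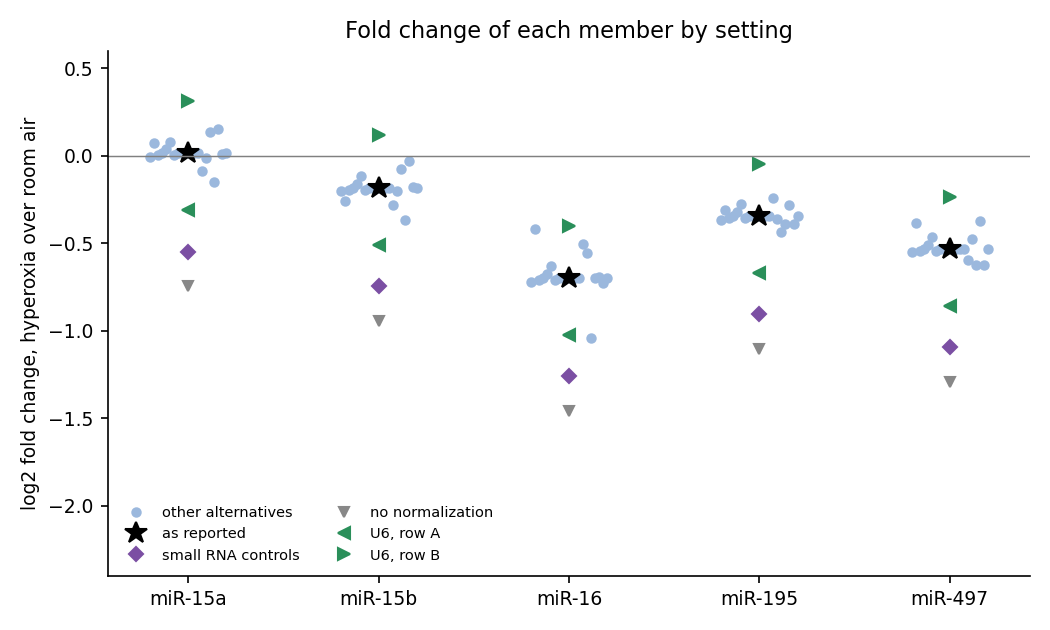
Log2 fold change of hyperoxia over room air for each member as reported (star) and under 24 alternative settings, with the references that move it most marked. All members shift together with the reference, miR-15a from -0.75 without normalization to 0.31 with U6 of row B, and miR-16 stays below 0 throughout.

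Ratios between members of the same sample need no reference at all. The log2 ratio of a member to another is the Ct of the other minus its own Ct in that sample. Its level depends on the assays, but its change between groups does not depend on a reference RNA. All 10 pairs were compared by an exact permutation test (two-sided), for which the smallest p is 0.1. The groups did not overlap in 3 of 10 pairs, where 18.3% of all 39621 pairs of the 282 assays did not overlap. Those 3 pairs join the same members, miR-15a, miR-15b and miR-497, so they are not independent. The lowest exact permutation p after Benjamini-Hochberg adjustment over the 10 pairs was 0.333.

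The ratio of miR-15a to miR-15b was the steadiest. It was -0.71, -0.73 and -0.68 in room air, against -0.55, -0.48 and -0.49 in hyperoxia, so every hyperoxia sample was higher. The difference was 0.20 on the log2 scale (exact permutation p = 0.1, adjusted p = 0.333), against an SD of 0.027 in room air and 0.036 in hyperoxia (n = 3 each). The spread between samples of a group, pooled over both groups, was 0.032, and 0 of the 39621 pairs had a smaller one. The median over all pairs was 0.74. miR-15a and miR-15b are read in neighbouring wells. Over 216 pairs of neighbouring wells, looked at after the values were seen, the median was 0.61. The part of well position was not tested. They come from different chromosomes and have the same base at 18 of 22 positions, as the sequences above show. How far each assay reads the other's miRNA was not tested.

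miR-497 was lower relative to both miR-15 members in every hyperoxia sample. The ratio of miR-15a to miR-497 was 0.33, 0.60 and 0.66 in room air, against 1.22, 1.12 and 0.90 in hyperoxia, a difference of 0.55 (exact permutation p = 0.1, adjusted p = 0.333). The ratio of miR-15b to miR-497 was 1.05, 1.33 and 1.33 in room air, against 1.77, 1.60 and 1.39 in hyperoxia, a difference of 0.35 (exact permutation p = 0.1, adjusted p = 0.333). In both ratios every hyperoxia sample lay above every room air sample, which gives the smallest p the design allows. Among all 39621 pairs of assays 18.3% had groups apart. Both ratios hold miR-497, and the ratio of miR-15a to miR-15b was steady, so they are not separate results. The partners of the chromosome 11 hairpins, miR-195 and miR-497, had a ratio of 3.33, 3.22 and 2.83 in room air, against 3.22, 3.50 and 3.22 in hyperoxia. That difference, 0.19, lay within the spread (exact permutation p = 0.5, adjusted p = 0.556).

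The ratios of miR-16 to its transcript partners followed room air replicate 3. The ratio of miR-15a to miR-16 was -5.67, -5.42 and -4.15 in room air, against -4.04, -4.64 and -4.42 in hyperoxia. The difference was 0.71, and room air replicate 3 lay among the hyperoxia samples (exact permutation p = 0.3, adjusted p = 0.556). The ratio of miR-15b to miR-16 was -4.96, -4.69 and -3.47 in room air, against -3.50, -4.16 and -3.93 in hyperoxia, a difference of 0.52 (exact permutation p = 0.4, adjusted p = 0.556). Without room air replicate 1 these differences were 0.42 and 0.22, and without room air replicate 3 they were 1.18 and 0.97. The pooled spread was 0.62 and 0.61 for these pairs, against 0.22 for miR-195 with miR-497. For miR-16 with miR-195, the pair most alike in sequence, the ratio differed by -0.35 (exact permutation p = 0.4, adjusted p = 0.556). The remaining pairs differed by -0.17 to 0.36 with groups that overlapped.

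**Figure D4:**
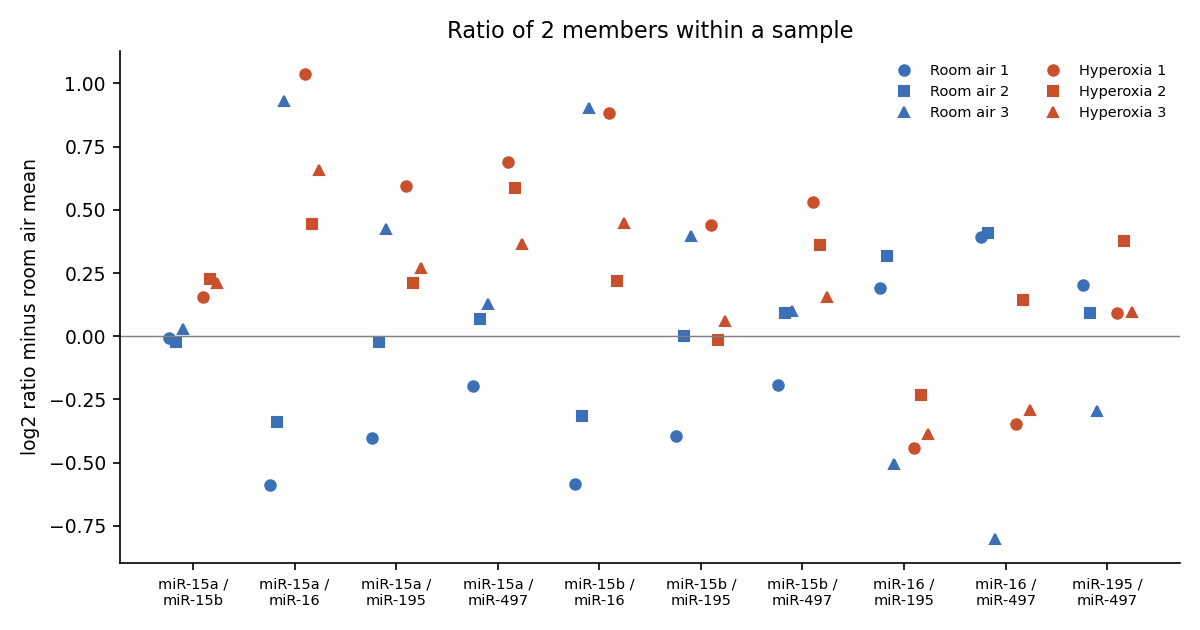
Log2 ratio of 2 members within each sample, minus its room air mean, for all 10 pairs, with samples marked by group and replicate. The hyperoxia samples lie apart from the room air samples for miR-15a with miR-15b, miR-15a with miR-497 and miR-15b with miR-497, and room air replicate 3 lies with hyperoxia wherever miR-15a or miR-15b is set against miR-16.

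**Figure D5:**
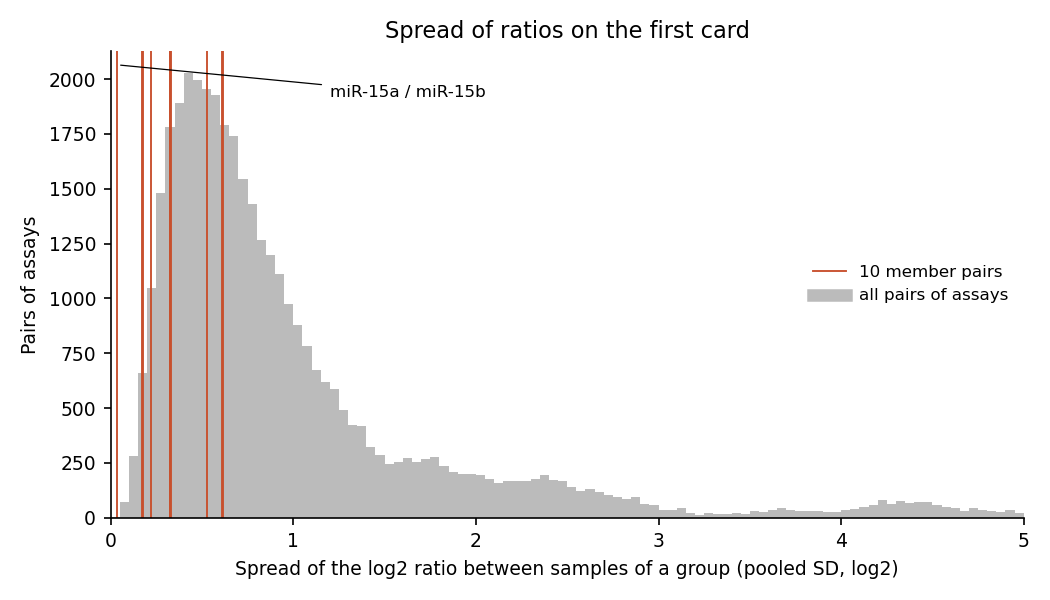
Histogram of the spread of the log2 ratio between samples of a group (pooled SD) for all 39621 pairs of the 282 assays, with the 10 member pairs as vertical lines; 1205 pairs above 5 are not drawn. The line of miR-15a with miR-15b, at 0.032, is the leftmost value of all pairs, and the median of all pairs is 0.74.

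Room air replicate 3 was also low in some other early assays. Its log2 relative abundance minus the mean of the other room air samples was -1.005 for miR-16 and -0.25 for miR-195. The 20 assays with the earliest mean Ct, up to 16.80, hold miR-16 and no other member. Among the 19 others, replicate 3 was the lowest room air sample in 11, with a median of -0.30 against the mean of the other room air samples. Over all 282 assays it was the lowest in 37.9%, with a median of 0.07. The part of this sample or of early Ct in the miR-16 result was not tested.

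The miRNAs outside the family with profiles most like each member were found by the mean absolute difference between profiles over the 6 samples, each centred on its own mean. For miR-16 they were miR-484 (0.093), the endothelial miR-126-3p (0.12) and miR-140 (0.14), against a median of 0.53 over all other assays. miR-126-3p was at 10.73, 11.10 and 9.90 in room air, against 9.90, 9.92 and 10.07 in hyperoxia, with the same low room air replicate 3. The transcript partners of miR-16 lay near that median, miR-15a at 0.55 and miR-15b at 0.49.

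Outside the family, miR-15a was nearest to miR-582-5p (0.056), miR-130a (0.086) and rno-miR-381 (0.11), and miR-15b to miR-582-5p (0.070), let-7g (0.082) and miR-130a (0.086). The card also holds mmu-miR-381, not among these, with a log2 fold change of -0.39 against 0.037 for rno-miR-381. miR-15a and miR-15b differed from each other by 0.099, so miR-15b was nearer to miR-15a than rno-miR-381 was. Outside the family, miR-195 was nearest to miR-30e (0.074), the epithelial miR-203 (0.076) and miR-872 (0.086), and miR-497 to miR-203 (0.12), the smooth muscle miR-145 (0.12) and miR-361 (0.13). miR-195 and miR-497 were at 0.131 from each other, so miR-195 was nearer to miR-497 than miR-361 was, at 0.134. These distances are descriptions over 6 samples that share a reference.

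Other miRNAs carry the same or a nearby seed. They are shown in the same way, with bases 2 to 8 in capitals, to let the seeds be compared.
miR-322: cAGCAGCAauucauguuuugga
miR-503: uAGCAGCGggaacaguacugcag
miR-103: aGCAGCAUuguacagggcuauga
miR-107: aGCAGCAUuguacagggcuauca

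miR-322 has the family's seed, miR-503 differs in the last base of it, and miR-103 and miR-107 carry the same letters shifted by a base. By limma over all assays 0 of the 5 wells of this list passed in either direction, with 4 negative and 1 positive and a median of -0.41. miR-503, made with miR-322 from a cluster on the X chromosome, had a Ct of 19.63, 20.37 and 20.49 in room air, against 22.99, 22.42 and 22.17 in hyperoxia, with groups far apart. Its log2 fold change was -1.60 ± 0.32 (SE, as for the values that follow; limma adjusted p = 0.314), further from 0 than that of any of the 5 members. miR-103 was at -0.46 ± 0.25 and miR-107 at -0.22 ± 0.25 (limma adjusted p = 0.68 and 0.802; miR-107 at 0.077 with U6 of row B). miR-103 and miR-107 are known for effects on metabolism and Dicer.

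The wells named miR-322 disagreed. On the first card, the well had a Ct of 28.72, 28.25 and 27.32 in room air, against 25.91, 19.97 and 20.07 in hyperoxia, for a log2 fold change of 6.87 ± 1.61 with a limma adjusted p of 0.333. Without hyperoxia replicate 1 it was 8.66 and passed the threshold (limma adjusted p = 0.0173). On the second card, where the link of names to assay numbers is uncertain, it was at 20.34 and 19.78 in room air, against 20.44 and 20.87 in hyperoxia, where the log2 fold change was -0.41 ± 0.38 with n = 2 per group (limma adjusted p = 0.772). The 2 wells therefore give no common value for this miRNA.

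The minor strands of the members are the opposite arms of the same hairpins. The wells named for them lie on the second card, where each group has 2 usable samples. There the link of names to assay numbers is uncertain. By limma 0 of 3 passed, and all 3 were negative as reported. miR-15a# was at -0.90 ± 0.46, with a Ct of 25.79 and 25.86 in room air, against 27.33 and 26.48 in hyperoxia. It was at -0.23 with the first card's reference used for both cards and at -0.52 with the median as reference. miR-15b# was at -0.33 ± 0.45 and miR-16# at -0.36 ± 0.44 (limma adjusted p from 0.68 to 0.853 for the 3), and miR-15b# and miR-16# turned positive, at 0.331 and 0.305, with the first card's reference used for both cards, and at 0.045 and 0.019 with the median as reference. The groups of miR-15b# and miR-16# overlapped, so the minor strands do not settle the direction of miR-15b or miR-16.

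Among other miRNAs known to restrain the cell cycle, such as let-7, miR-26, miR-29 and miR-34, limma called 0 of 21 tested, with 15 positive, 6 negative and a median of 0.26. With the small RNA controls as reference 15 were negative, so this direction depends on the reference. Among those known to promote it, such as the miR-17 cluster, miR-21 and miR-221, limma called 0 of 15, with 4 positive, 11 negative and a median of -0.40. miR-21 and miR-221 were among the 4 positive, while miR-26a and miR-26b were among the 6 negative of the restraining list. miR-26a was at -1.60 ± 0.84 and miR-26b at -0.45 ± 0.48 (SE), with groups that overlapped for both. The median of all assays was -0.12. An unadjusted limma p under 0.05 was reached by 5 of 21 (23.8%) and 3 of 15 (20%), where 9.07% of all 551 assays reached it. Named after their values were seen, the 5 were miR-34a (2.55), miR-29a (0.85), miR-29b (1.25), miR-29c (0.98) and the second-card miR-449b (-1.03). That miR-449b well had n = 2 per group, on the card where the link of names to assay numbers is uncertain. The first-card well named miR-449b had a Ct of 30.87 in room air replicate 1 and of 40 in every other sample, so it was not tested. The 3 were miR-21 (1.61), miR-221 (1.30) and miR-93 (-0.95).

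Blood and leukocytes are rich in miR-16 and miR-15, so their markers are given beside the family. Of 3 erythroid assays limma called 0, with 2 positive and 1 negative. miR-451 was at -0.97, 2.06 and 2.40 in room air, against 3.16, 0.13 and 2.34 in hyperoxia, a range far wider than that of any member. In the same samples miR-16 was at 8.41, 8.31 and 7.36 in room air, against 7.31, 7.34 and 7.33 in hyperoxia. Whether the levels of miR-451 and miR-16 go together was not tested. The negative erythroid assay was the well named miR-144 on the second card, where the link of names to assay numbers is uncertain. It was also named here after its values were seen, at -1.29 ± 0.32 with groups apart (limma adjusted p = 0.446, unadjusted p = 0.0192, n = 2 per group). The summed erythroid level of the first card ran from 2.25 to 10.2 in room air and from 2.61 to 17.3 in hyperoxia. Of 6 leukocyte assays limma called 0, with 4 positive and 2 negative. The summed level of the 5 on the first card ran from 92.5 to 120.0 in room air and from 67.0 to 139.0 in hyperoxia. miR-142-3p was at 3.62, 3.46 and 4.17 in room air, against 4.18, 4.79 and 4.06 in hyperoxia (difference 0.60 ± 0.34 on the log2 scale, limma adjusted p = 0.68). Leukocyte assays differed in direction, with miR-150, named after its values were seen, at -1.09 ± 0.27 and groups apart (limma adjusted p = 0.333, unadjusted p = 0.0082), and miR-142-5p at -0.036. The summed endothelial level, of miR-126 on both arms, ran from 1110 to 2380 in room air and from 1090 to 1260 in hyperoxia, and miR-126-3p differed by -0.61 ± 0.37 on the log2 scale with a limma adjusted p of 0.689. No defining marker of these 3 cell types was undetected. The part of these cell types in the family's values was not tested.

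For the remaining cell types the counts were as follows, with 0 called by limma in each. Of 10 epithelial assays 4 were positive and 6 negative, with a median of -0.071. Of 7 smooth muscle and mesenchymal assays 4 were positive and 3 negative, with a median of 0.24. Of 7 striated muscle assays 1 was positive and 6 negative, with a median of -0.58. The summed level of the 6 on the first card ran from 11.2 to 1200 in room air and from 5.01 to 42.1 in hyperoxia. The highest level of each group came from the miR-499 well, with a Ct of 11.81 in room air replicate 1 and 17.63 in hyperoxia replicate 2 and of 29.88 to 34.04 in the other 4 samples. Without miR-499, named after its values were seen, the sum ran from 11.2 to 23.3 in room air and from 5.0 to 11.7 in hyperoxia. The liver miRNA miR-122 was at -0.69.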

How the data were processed

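The authors deposited 1 table with a Ct per well and sample, and a fold (ratio) of hyperoxia over room air from group means, per the file headers. Per the labels' protocols, RNA was reverse transcribed with Megaplex primer sets A and B and pre-amplified for 12 cycles. The instrument and its software are not given in the sources used here. The 768 wells were read as 2 cards of 384. A Ct of 35 or more was treated as not detected. Relative abundance is a card's mean Ct, over miRNA assays that every sample used there detected (282 and 249 assays), minus the assay's Ct. Assays detected in at least 2 samples of each group were tested with limma 3.58.1 in R 4.3.3 (lmFit, eBayes, two-sided). The p-values were adjusted by Benjamini-Hochberg over 551 assays (302 and 249). The pipeline was tested on simulated data with shifts larger than those of the members and every sample kept on both cards. That test does not show whether differences of the members' size would be found. Control RNAs and a plant miRNA stayed out. Exact permutation tests used SciPy 1.17.1. Members, lists, settings and the rule for named miRNAs were chosen with earlier results of these data known. Named are all members, the detected assays of related seed and minor strands, cell type markers, and the 3 assays nearest to each member. Precision is limited by the number of samples. The early assays, neighbouring wells and U6 rows were looked at after the values were seen.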

Additional observations from a re-analysis of the deposited data

How the results depend on the processing

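With 3 samples per group, exact tests cannot go below 0.1, and none of the 5 members passed under any of 24 alternatives, with limma adjusted p from 0.112 to 0.998. miR-16, miR-195 and miR-497 stayed negative in all 24. miR-15a, at 0.016 as reported, was at -0.006 with median normalization, -0.55 with the small RNA controls, -0.75 without normalization and -0.31 with U6 of row A, an alternative added after seeing the data. miR-15b was at 0.12 with U6 of row B, likewise added, where miR-107 was at 0.077. With 1 sample left out, miR-15a ran from -0.15 to 0.16, miR-15b from -0.37 to -0.029, miR-16 from -1.04 to -0.50, miR-195 from -0.43 to -0.24 and miR-497 from -0.63 to -0.37, and the first-card miR-322 from 5.80 to 8.66. The miR-322 well of the second card turned to 0.25 with the first-card reference, where miR-15b# was at 0.33 and miR-16# at 0.31; with median normalization these strands were at 0.045 and 0.019. With 1 sample left out, the difference in the ratio of miR-15b to miR-195 ran from -0.036 to 0.359 and that of miR-16 to miR-497 from -0.568 to 0.039. The count of assays called, 0 as reported, was 1 with quantile normalization, a Ct ceiling of 32 or of 30, the first card alone or eBayes with trend and robust, 8 with a Ct of 40 as a measurement, and 0 to 1 with 1 sample left out. Of the assays that restrain the cell cycle 15 were negative with the small RNA controls, 16 without normalization and 5 to 10 with 1 sample left out, against 6. The second-card assays could not move when room air 1 or hyperoxia 2 was left out and had too few samples otherwise. Deviations from the group mean had a Pearson r of -0.34, -0.23 and -0.18 across 282 assays between same-numbered samples. Between other room air and hyperoxia samples r ran from -0.25 to 0.36. Centring within groups of 3 ties these values to each other, so they cannot show whether the numbers pair samples. With the replicate number as a block, 301 assays could be fitted, 0 passed, and miR-16 was at -0.70 ± 0.37 (limma adjusted p = 0.589).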
